A study of Mus musculus with 3 samples.

Results

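Serotonin and adrenergic receptors are the cell-surface proteins through which a change in extracellular serotonin or noradrenaline reaches a skin cell. The genes described here were the 9 receptor genes Htr1b, Htr1d, Htr2a, Htr2b, Htr7, Adra1d, Adra2a, Adra2b and Adrb1, taken by symbol from 33696 genes counted in each of 3 single-cell libraries of mouse skin. They are described across cell classes named from marker genes and across the 3 libraries, and 14 other receptor genes of both families serve for comparison.

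Each library came from the dorsal skin of female C57BL/6 mice aged 9 weeks. The library labelled Cont came from vehicle-treated negative controls, the library labelled CIA from a chemotherapy-induced alopecia model, in which a cytotoxic drug causes hair loss, and the library labelled CIA+VFX from the same model with venlafaxine, a serotonin and noradrenaline reuptake inhibitor. The cytotoxic drug, the doses and the day of sampling are not given in the sources used here. In all 3 groups the skin had been depilated with wax strips and only the waxed area was taken. Tissue of an unstated number of mice was pooled, digested with collagenase D at 0.7 mg/mL, freed of red cells by ACK lysis and cleared of debris on Percoll. With 1 library per group there was no replicate, so no difference below has a test, and every interval covers counting error only.

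The 9 receptors described here all couple to G proteins. The 5-HT1 receptors and the alpha2 adrenoceptors couple to Gi, which lowers cyclic AMP, the 5-HT2 receptors and the alpha1 adrenoceptors couple to Gq, which releases calcium through phospholipase C, and 5-HT7 and the beta adrenoceptors couple to Gs, which raises cyclic AMP. In skin, serotonin is known mainly as a mediator released by platelets and mast cells that acts on vessels and immune cells, and noradrenaline comes from sympathetic nerves that supply arterioles and the muscle that erects the hair.

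The Cont, CIA and CIA+VFX libraries held 14529, 17675 and 18987 barcodes with 143164803, 130557879 and 155210692 unique molecular identifiers (UMIs, each marking 1 captured transcript). After filtering and removal of simulated-doublet neighbours, 11904, 15401 and 15372 cells remained, with median depths of 6823, 5050 and 5459 UMIs. Between 75 and 110 barcodes were shared by any pair of libraries. Of 62 clusters, 51 were named from markers in 24 classes, and 19 classes held at least 50 cells in each library. The 11 unnamed clusters held 14.2%, 13.2% and 18.4% of the kept cells. The Cont library held far fewer vascular cells than the others, with 183 vascular endothelial-like cells against 922 and 1044, and 74 pericyte and smooth muscle-like cells against 268 and 364.

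The 9 receptors differed widely in how many transcripts were captured. Htr7 had 4262 UMIs over the kept cells, Htr2a 1253, Adra2a 732, Htr2b 552, Adrb1 534, Htr1d 186, Adra2b 52, Htr1b 49 and Adra1d 9. These totals depend on how many cells of each kind were captured and are not levels per length, so they are not compared between genes. A level below is the gene's UMIs per 1000000 UMIs of all genes (CPM), summed over the cells of a class in a library, with an exact Poisson interval in brackets where one is given. Among the 19 classes, Htr7 was highest in dendritic and Langerhans-like cells, Htr2a in vascular endothelial-like cells, Htr2b in lymphatic endothelial-like cells, Adra2a in pericyte and smooth muscle-like cells, Htr1d in companion layer-like cells and Adrb1 in T, NK and innate lymphoid-like cells, called the lymphoid class below.

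**Figure D1:**
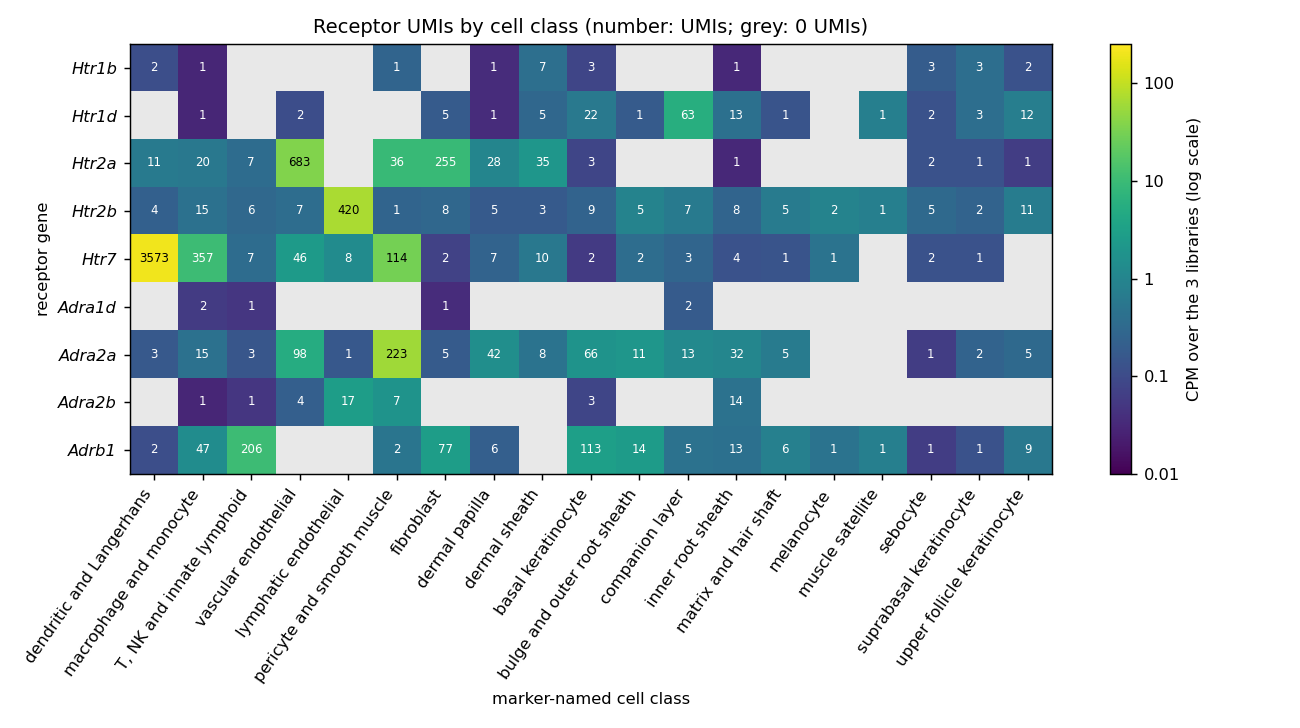
Level of each receptor gene (rows) in each of the 19 cell classes with at least 50 cells in every library (columns), as CPM over the 3 libraries on a log color scale; the printed numbers are UMIs and grey marks 0 UMIs. Htr7 stands at 3573 UMIs in dendritic and Langerhans-like cells and Htr2b at 420 in lymphatic endothelial-like cells, while Adra1d has at most 2 in any class.

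Promoter sequence is shown for 4 receptors with different cell classes, because the genes differ in CpG content, a property of the promoter that the choice of genes did not use. The sequences are RefSeq windows of up to 250 bases before the start site on GRCm38.p6, an earlier build than the GRCm39 named for the counts, and each ends before any annotated exon. They are written 5′ to 3′ on the gene's strand, and capitals mark CpG dinucleotides. The Htr7 stretch is chr19:36057508-36057610 (minus strand), that of Adrb1 chr19:56721867-56722116 (plus strand), that of Htr2a chr14:74640624-74640839 (plus strand) and that of Htr2b chr1:86111981-86112230 (minus strand).
Htr7: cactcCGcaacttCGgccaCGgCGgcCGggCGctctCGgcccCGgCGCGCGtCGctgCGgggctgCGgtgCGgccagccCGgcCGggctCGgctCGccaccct
Adrb1: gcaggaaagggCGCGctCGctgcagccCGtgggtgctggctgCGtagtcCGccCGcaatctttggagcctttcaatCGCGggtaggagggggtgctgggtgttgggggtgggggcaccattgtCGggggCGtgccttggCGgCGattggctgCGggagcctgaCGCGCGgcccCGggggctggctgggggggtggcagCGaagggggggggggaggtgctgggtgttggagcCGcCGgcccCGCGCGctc
Htr2a: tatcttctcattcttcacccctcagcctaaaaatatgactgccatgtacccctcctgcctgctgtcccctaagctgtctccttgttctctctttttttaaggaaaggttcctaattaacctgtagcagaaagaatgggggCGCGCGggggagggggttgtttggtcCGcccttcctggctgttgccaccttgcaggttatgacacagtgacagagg
Htr2b: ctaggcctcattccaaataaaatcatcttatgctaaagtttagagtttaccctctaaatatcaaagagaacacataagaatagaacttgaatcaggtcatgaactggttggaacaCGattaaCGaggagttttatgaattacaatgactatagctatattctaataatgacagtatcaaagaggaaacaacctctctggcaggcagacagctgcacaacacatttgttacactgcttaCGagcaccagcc
The stretches of Htr7 and Htr2a are 103 and 216 bases long and those of Adrb1 and Htr2b 250, so their CpG counts are not compared. The Htr7 and Adrb1 stretches held 19 and 24 CpGs and were 82.5% and 74% G or C. Those of Htr2a and Htr2b held 4 and 3 CpGs and were 51.4% and 37.6%. In the full 250-base windows Htr7 had 41 CpGs and Htr2a 4. Adra2b, with 17 of its 52 UMIs in lymphatic endothelial-like cells, had 23 CpGs and 66% in its window. Few CpGs were therefore not shared by all receptors of endothelial classes. Over 32851 RefSeq promoter windows of 250 bases the medians were 6 CpGs and 52.4%. An entry existed for 8 of the 9 receptor genes. The letters TGACG, the core of the cyclic AMP response element, were searched on both strands of the full 250-base windows and occurred in those of Htr7, Adra2a and Adrb1, as in 17.8% of all windows. The Htr7 match, 87 bases before the start, lies beyond the printed stretch, which ends where an annotated exon begins. The Adra2a window meets an annotated exon at its first base, so its match also lies past an exon start. A match is a run of letters and does not show binding.

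A ratio between libraries was read only for pairs of a receptor and a class with at least 20 UMIs over both libraries, and is described as higher or lower from 1.5-fold. In CIA against Cont, 13 of 17 such pairs were higher and 0 lower, with a median log2 ratio of 0.80. Over all genes measured in the same 12 classes, 14.9% of pairs were higher, 9.21% lower and 24.1% past 1.5-fold in either direction. In 6 of these pairs the counting interval also left out 0, against 16.5% over all genes, and these were Htr7 in macrophage and monocyte-like and in pericyte and smooth muscle-like cells, Adra2a in the latter, Htr2a in vascular endothelial-like cells, and Adrb1 in basal keratinocyte-like cells and in the lymphoid class. In CIA+VFX against CIA, 3 of 18 pairs were higher and 5 lower, where over all genes 7.92% were higher, 6.01% lower and 13.9% either. The interval left out 0 in 7 of these, against 7.75% over all genes. In CIA+VFX against Cont, 8 of 19 pairs were higher and 2 lower, where over all genes 15.2% were higher, 7.53% lower and 22.7% either, and the interval left out 0 in 7 of them against 14.9%. The 3 comparisons share libraries, so their counts are set side by side only.

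**Figure D2:**
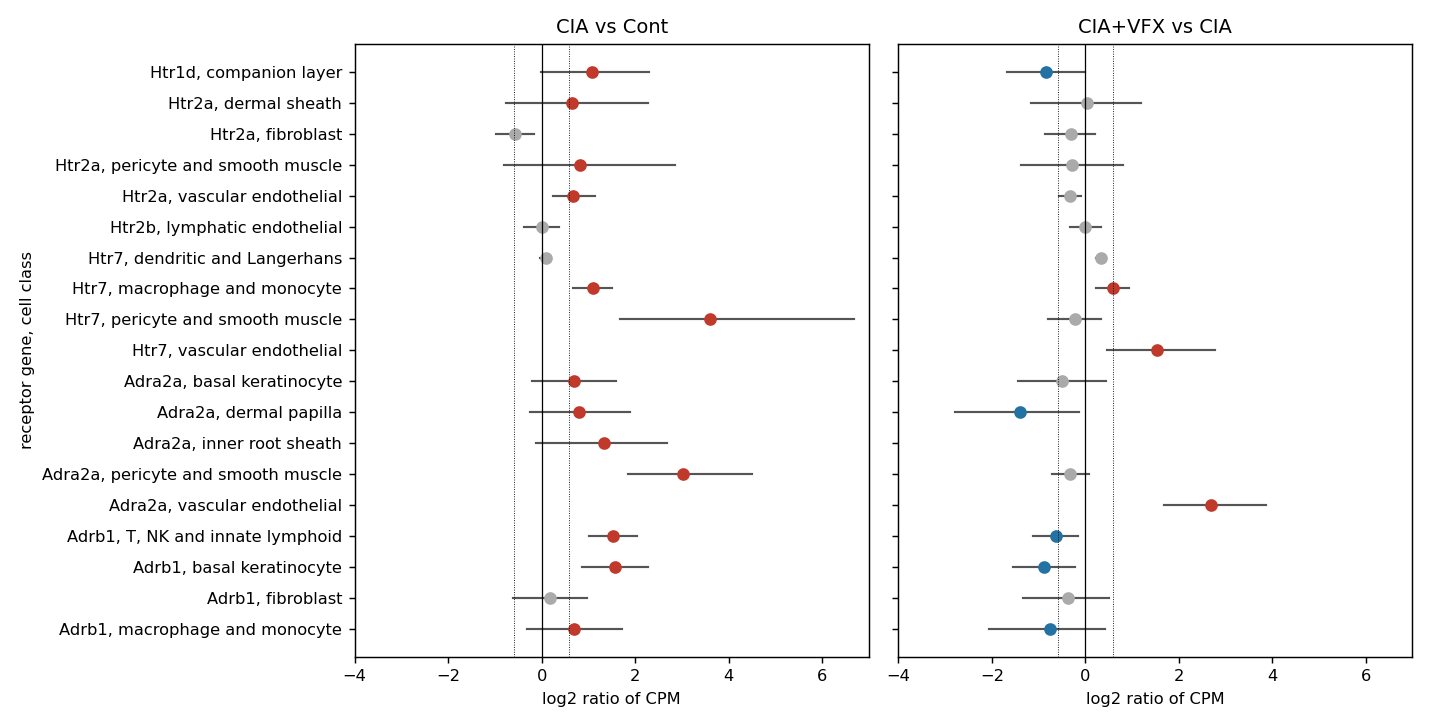
Log2 ratio of CPM for each measured pair of receptor gene and cell class, CIA against Cont on the left and CIA+VFX against CIA on the right. Bars are 95% conditional binomial intervals, dotted lines mark 1.5-fold, and red, blue and grey points are higher, lower and neither; on the left 13 of 17 points are red and none is blue.

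Htr1d encodes 5-HT1D, a Gi-coupled serotonin receptor best known on sensory nerve endings. Its level in companion layer-like cells, the keratinocyte layer between the inner and outer root sheath, was 4.15 CPM in Cont, 8.78 in CIA and 4.89 in CIA+VFX, from 10, 26 and 27 UMIs. The CIA library was the highest. On the log2 scale the ratio was 1.08 (-0.02 to 2.30) in CIA against Cont, where 22% of all genes of the class were past 1.5-fold, and -0.85 (-1.68 to -0.01) in CIA+VFX against CIA, where 16.3% were. Within the class, Htr1d stood at 15.8, 34.4 and 12.7 CPM in the cluster led by Krt75, which encodes the companion layer keratin. In the other cluster, led by Pthlh and Sox9, it stood at 2.39, 2.91 and 3.88 CPM, and the order of CIA and CIA+VFX was the opposite one, with a log2 ratio of 0.42. The class held 63 of the 186 Htr1d UMIs. No other class had an Htr1d level as high in any library, and the T, NK and innate lymphoid-like cells held 0 UMIs in 1616, 1415 and 1240 cells.

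Htr1b encodes 5-HT1B, the Gi-coupled receptor that acts as an autoreceptor on serotonin nerve endings. It had 8, 23 and 18 UMIs in the Cont, CIA and CIA+VFX libraries. Basophil-like cells held 0, 9 and 4 of these, at 13.9 CPM (6.34 to 26.3) in CIA and 7.82 CPM (2.13 to 20.01) in CIA+VFX, but only 12 such cells were captured in Cont against 116 and 114. Taking 3 UMIs as the limit that a count of 0 allows, the level in Cont could be up to 81.1 CPM, so no difference was detectable. An unnamed cluster led by Il5 and Igsf5, with Il13 among its leading genes, held 4, 3 and 4 Htr1b UMIs. Htr1b overlaps the antisense gene D430036J16Rik, and whether strand was used in counting is not given in the sources used here.

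Htr2a encodes 5-HT2A, the Gq-coupled receptor through which serotonin contracts vascular muscle and acts on platelets. In vascular endothelial-like cells its level was 27.2 CPM (20.2 to 35.9) in Cont, 43.4 (38.6 to 48.7) in CIA and 34.6 (31.04 to 38.6) in CIA+VFX, from 50, 297 and 336 UMIs. CIA was the highest and Cont the lowest, and the intervals of these 2 libraries did not overlap. The class held 54.5% of all Htr2a UMIs. A UMI of Htr2a was found in 15.3%, 16.2% and 18.8% of the cells, and in 5.06%, 8.43% and 7.66% after each cell was thinned to 2000 UMIs. The bulge and outer root sheath-like cells held none in 413, 589 and 665 cells, which allows shares of cells with a UMI of up to 0.726%, 0.509% and 0.451%, at median depths of 2918, 3125 and 2746 UMIs against 8217, 6062 and 5443.5 in the vascular class.

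In CIA against Cont the log2 ratio of Htr2a in vascular endothelial-like cells was 0.67 (0.24 to 1.14), beside a median of 0.18 over all genes of the class, 26.6% of which were past 1.5-fold. Under TMM scaling it was 0.53 and in thinned cells 0.41, both below 1.5-fold. In CIA+VFX against CIA it was -0.33 (-0.56 to -0.10). The 3 clusters of the class make up different shares of it in the libraries, which held 127, 561 and 422 cells of the cluster led by Flt1 and Adgrl4, 29, 138 and 256 of the cluster led by Selp and Sele, the selectins of venules, and 27, 223 and 366 of the shallow cluster led by Ackr1 and Csf3. Htr2a stood at 26.6, 44.1 and 39.7 CPM in the first and at 32.3, 34.2 and 29.5 in the second. The shallow Ackr1 cluster stood at 15.4 CPM (0.389 to 85.7) in Cont, 67.8 (44.7 to 98.6) in CIA and 32.8 (19.7 to 51.2) in CIA+VFX, from 1, 27 and 19 UMIs, with a log2 ratio of CIA+VFX to CIA of -1.05 (-1.98 to -0.15). Of the 3, only the Flt1 cluster showed Cont below CIA with intervals that did not overlap; the difference between the clusters was not tested. The 8 pericyte markers summed to 248, 344 and 917 CPM in the class, with Cspg4 at 0 in Cont. In the vascular cells with no UMI of those markers Htr2a was 37.6, 38.1 and 46.5 CPM, a log2 ratio of 0.02 for CIA against Cont, and in those with such a UMI it was 18.2, 47.3 and 30.6 CPM. A split by the fibroblast markers went the other way. Vascular cells with no UMI of the fibroblast markers stood at 20.3, 50.5 and 34.9 CPM, and those with one at 33.0, 30.3 and 34.5. The part of admixed RNA in the class ratio was not tested.

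Fibroblast-like cells followed as the third class for Htr2a, and the order of the libraries was another one. Their level was 12.4 CPM in Cont, 8.39 in CIA and 6.75 in CIA+VFX, from 116, 94 and 45 UMIs. The control library was the highest. CIA against Cont gave a log2 ratio of -0.56 (-0.97 to -0.16), short of 1.5-fold, and -0.88 (-1.41 to -0.37) in CIA+VFX against Cont, where 21.5% and 19.2% of all genes of the class were past it. Between CIA+VFX and CIA, where 15.2% were, it was -0.31 (-0.86 to 0.21). Htr2a was above the class level in the cluster led by Smpd3 and Opcml, at 30.9, 15.7 and 9.01 CPM in 260, 441 and 162 cells. That cluster had the adventitial marker Dpp4 among its leading genes. In the cluster led by Col1a1 and Col1a2 the direction was the opposite one, at 5.47, 12.01 and 7.24 CPM, with a log2 ratio of CIA to Cont of 1.13 (0.35 to 1.94). The cluster led by Myoc and Thbs4 stood at 6.78, 2.32 and 5.01 CPM, and its share of the class was 26.7%, 53.7% and 56.2%, while that of the Col1a1 cluster was 45.1%, 19.1% and 25.2%. The part of this makeup in the class ratio was not tested. A small cluster led by Cdh4 and Cadm3 stood at 27.6 CPM over the libraries, from 10 UMIs in 130 cells, against 20.8 in the Smpd3 cluster. Fibroblast-like cells with no UMI of the vascular endothelial markers stood at 12.6, 6.99 and 4.63 CPM, and those with one at 11.9, 11.1 and 10.6. Pericyte and smooth muscle-like cells, the class ranked between vascular endothelial-like and fibroblast-like cells, stood at 6.26, 11.1 and 9.11 CPM, and their range over libraries overlapped that of the fibroblasts. Dermal sheath-like cells stood at 1.43, 2.25 and 2.29 CPM, and 16.6% of their genes were past 1.5-fold in CIA against Cont and 14.2% in CIA+VFX against CIA.

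Htr2b encodes 5-HT2B, a Gq-coupled receptor known from heart valves and vessel endothelium. Its level in lymphatic endothelial-like cells was 68.5 CPM (56.2 to 82.8) in Cont, 68.4 (57.5 to 80.7) in CIA and 68.0 (58.3 to 79.0) in CIA+VFX, from 108, 139 and 173 UMIs in 126, 290 and 322 cells. The 3 libraries stood within 1 CPM of each other. Ratios on the log2 scale were -0.00 (-0.38 to 0.37) in CIA against Cont and -0.01 (-0.34 to 0.33) in CIA+VFX against CIA, where 19.9% and 13.6% of all genes of the class were past 1.5-fold. These intervals do not show the levels to be equal, but they bound the counting difference. A UMI was found in 32.5%, 26.9% and 25.5% of the cells at median depths of 8557.5, 4897.5 and 4502 UMIs, and in 11.8%, 12.6% and 10.5% of thinned cells.

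The class held 76.1% of all Htr2b UMIs, and every other class stood below 1 CPM over the libraries. Vascular endothelial-like cells had 1, 3 and 3 UMIs, or 0.544, 0.439 and 0.309 CPM, whereas Htr2a, high in the vascular class, had 0 UMIs in the lymphatic class in each library. Neutrophil-like cells had no Htr2b UMI in 24, 183 and 166 cells, at medians of 2162, 2229 and 2152.5 UMIs. Htr2b lies within Psmd1, a proteasome subunit gene on the opposite strand, and whether strand was used in counting is not given in the sources used here. Psmd1 stood at 136, 147 and 96.7 CPM in the lymphatic class and at 129, 105 and 104 CPM in dendritic and Langerhans-like cells, where Htr2b had 4 UMIs in all. The 9 vascular endothelial markers summed to 1928, 2343 and 2348 CPM in the lymphatic class, with Vwf at 0 in Cont, and the class's own 6 markers to 23964, 25621 and 19906 CPM.

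**Figure D3:**
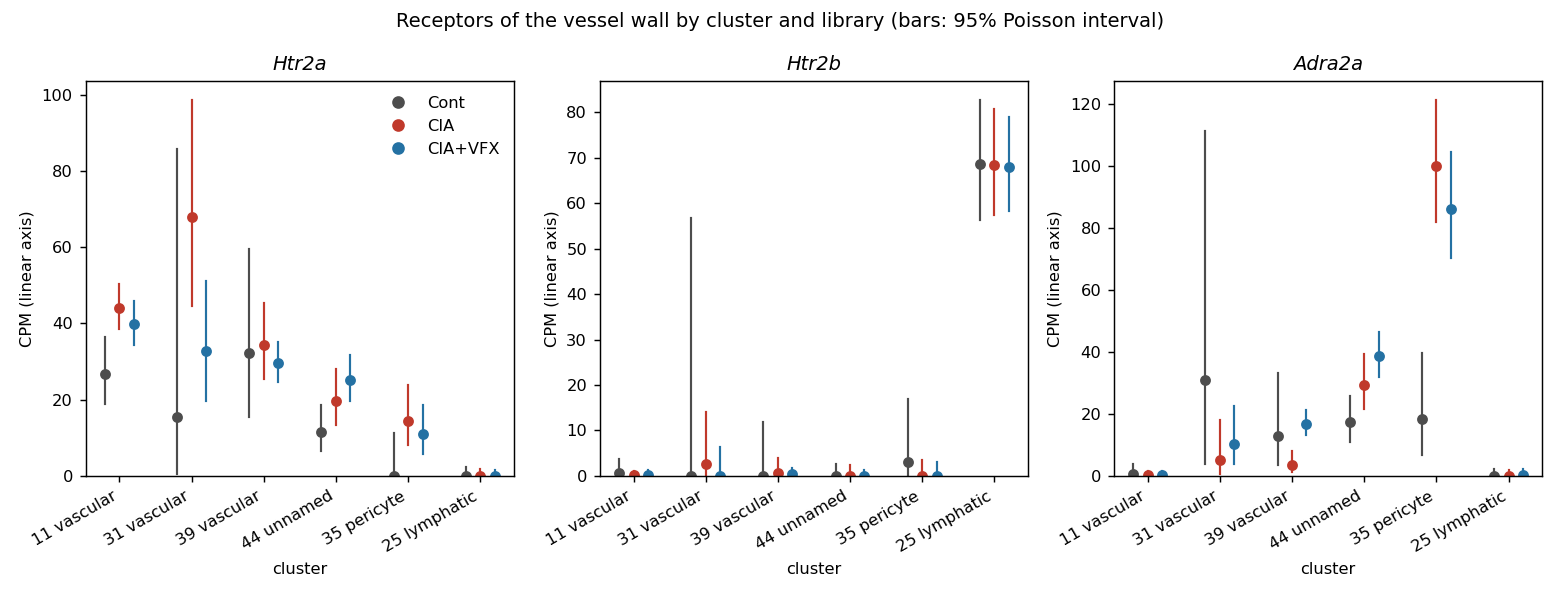
CPM of Htr2a, Htr2b and Adra2a (linear axes) in 6 vessel clusters, with 1 point per library and 95% Poisson intervals as bars. Htr2b lies at 68.0 to 68.5 CPM in the lymphatic cluster in all 3 libraries, and Adra2a in pericyte cluster 35 lies at 18.2 CPM in Cont against 100.1 and 86.0.

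Htr7 encodes 5-HT7, a Gs-coupled receptor that has been studied on dendritic cells and on vascular muscle. In dendritic and Langerhans-like cells its level was 179 CPM (167 to 191) in Cont, 190 (180 to 200.1) in CIA and 238 (226 to 252) in CIA+VFX, from 881, 1382 and 1310 UMIs in 633, 911 and 669 cells. CIA+VFX was the highest, with an interval clear of both others, while the intervals of Cont and CIA overlapped. The log2 ratio was 0.08 (-0.04 to 0.21) in CIA against Cont and 0.33 (0.22 to 0.44) in CIA+VFX against CIA, both short of 1.5-fold; 30.5% and 12.4% of all genes of the class were past it. A UMI was found in 39.8%, 43.6% and 49.8% of the cells at medians of 8134, 7912 and 8102 UMIs, and in 19.6%, 23.4% and 25.3% of thinned cells. Muscle satellite-like cells had none in 78, 236 and 96 cells, which allows shares of cells with a UMI of up to 3.85%, 1.27% and 3.12%, at medians of 4316.5, 2797 and 2855 UMIs.

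The dendritic class had 3 clusters that differed in Htr7. Htr7 was itself the gene that led the cluster with Flt3 and the type 1 dendritic cell gene Clec9a, although it had been left out of the genes used for clustering, and its level there was 336, 346 and 420 CPM. The cluster led by Cd209a, a lectin of type 2 dendritic cells, stood at 119, 115 and 144 CPM. In both clusters CIA+VFX was the highest, with log2 ratios to CIA of 0.28 (0.12 to 0.43) and 0.33 (0.15 to 0.50). The third, led by Ccl22 and Il12b with the lymph node homing receptor Ccr7, stood at 26.5 CPM (11.4 to 52.2) in Cont, 418 (349 to 496) in CIA and 303 (259 to 353) in CIA+VFX, from 8, 131 and 166 UMIs. Cont was far below the other libraries there, but the cluster held only 35, 39 and 56 cells and so fell under the minimum for a ratio. Ccr7 was not particular to it, as it was also among the leading genes of the Cd209a cluster. The class as a whole held 83.8% of all Htr7 UMIs. The Cd209a cluster held 33.7% of them, and its name was a close one. Its naming score was 1.97 for dendritic and Langerhans and 1.88 for macrophage and monocyte. The macrophage and monocyte markers summed to 3217, 4922 and 4796 CPM in it and the dendritic markers to 2211, 1687 and 1689.

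**Figure D4:**
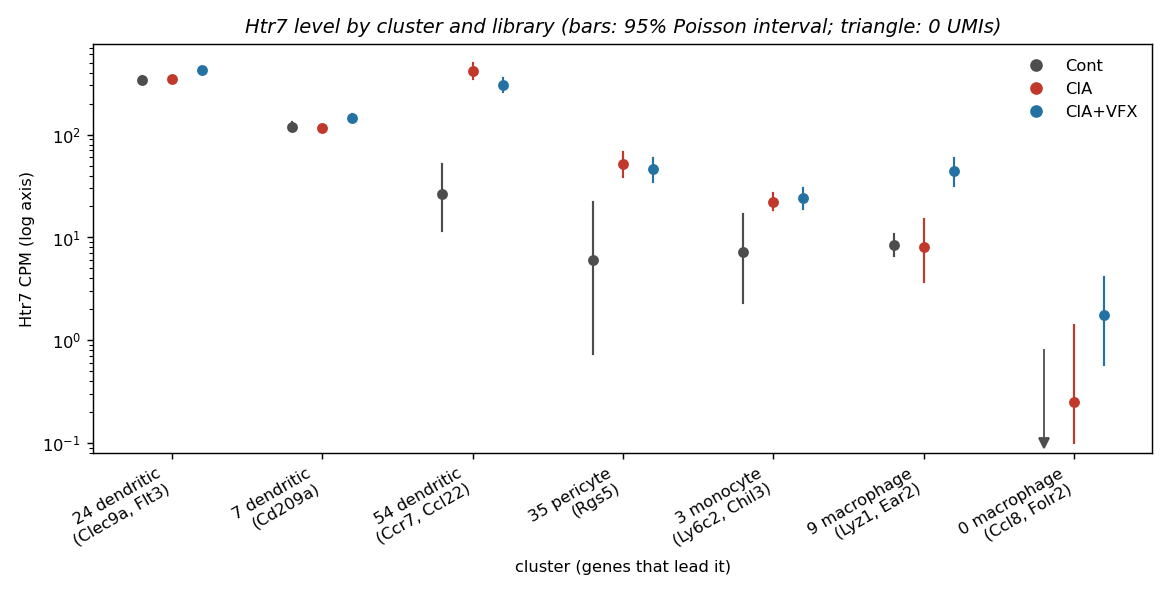
Htr7 level (CPM, log axis) in 3 dendritic clusters, a pericyte cluster and 3 monocyte or macrophage clusters, with 1 point per library and 95% Poisson intervals as bars; the triangle marks 0 UMIs. The Ccr7 and Ccl22 cluster stands at 26.5 CPM in Cont against 418 and 303, and the Lyz1 and Ear2 cluster at 43.8 CPM in CIA+VFX, from 41 UMIs in 13 of 110 cells, against 8.503 and 7.99.

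Macrophage and monocyte-like cells had lower Htr7, at 5.41 CPM in Cont, 11.5 in CIA and 17.3 in CIA+VFX, from 76, 138 and 143 UMIs. The intervals of the 3 libraries did not overlap. The log2 ratio was 1.09 (0.68 to 1.51) in CIA against Cont, where 31.9% of all genes were past 1.5-fold, and 0.59 (0.24 to 0.93) in CIA+VFX against CIA, where 12.3% were. The makeup of the class differed strongly between the libraries. The cluster led by the monocyte genes Chil3 and Ly6c2 held 115, 975 and 604 cells, that led by Lyz1 and Ear2 held 940, 128 and 110, and that led by Ccl8 and Folr2, genes of resident macrophages, held 829, 743 and 524. Htr7 stood at 7.17, 22.3 and 24.1 CPM in the monocyte cluster, at 8.503, 7.99 and 43.8 in the Lyz1 cluster, and at 0, 0.252 and 1.77 in the Folr2 cluster. The 43.8 CPM came from 41 UMIs in 13 of the 110 cells, and the 9 dendritic markers summed to 363, 290 and 506 CPM in the Lyz1 cluster, highest in the same library, with Cd207 and H2-M2 at 0 there. The part of dendritic RNA in that level was not tested. So Cont was below CIA in the monocyte cluster, but in the Lyz1 cluster the log2 ratio of CIA to Cont was -0.09 (-1.28 to 0.92). Without doublet removal, the log2 ratio of CIA+VFX to CIA in the class was -0.006. In the cells with no UMI of the 9 dendritic markers Htr7 was 3.97, 13.3 and 16.0 CPM. In those with such a UMI it was 6.87, 7.63 and 19.7 CPM, and the intervals of Cont and CIA overlapped. Those 9 markers summed to 312, 201 and 226 CPM in the whole class.

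In pericyte and smooth muscle-like cells Htr7 stood at 3.13 CPM (0.379 to 11.3) in Cont, 38.1 (28.7 to 49.6) in CIA and 32.5 (24.6 to 42.1) in CIA+VFX, from 2, 55 and 57 UMIs. Cont was below both other libraries, with an interval that did not reach theirs. CIA against Cont gave a log2 ratio of 3.60 (1.68 to 6.69), where 29.9% of all genes of the class were past 1.5-fold, and -0.23 (-0.79 to 0.33) in CIA+VFX against CIA, where 17.1% were. A UMI was found in 2.70%, 14.2% and 9.89% of the cells, and in 1.56%, 5.42% and 7.01% of thinned cells. Nearly all of these UMIs lay in the cluster led by Rgs5, a gene of pericytes, at 6.07, 52.0 and 45.9 CPM, and the cluster led by the smooth muscle genes Myh11 and Actg2 had 0 in each library. The dendritic markers summed to 23.5, 31.2 and 38.2 CPM in the class, with 3, 5 and 5 of 9 detected and Xcr1 and Clec9a at 0 in each library. In the cells with no UMI of those markers Htr7 was 3.90, 37.0 and 31.5 CPM. Outside the class, an unnamed cluster led by Rgs5, with Flt1 also among its leading genes, held 26, 46 and 41 Htr7 UMIs. Its level was 18.7, 30.1 and 14.1 CPM, so Htr7 was not near 0 in all Rgs5 cells of Cont. The log2 ratio there was 0.69 (-0.04 to 1.44) in CIA against Cont and -0.40 (-1.15 to 0.36) in CIA+VFX against Cont.

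Vascular endothelial-like cells held 0, 9 and 37 Htr7 UMIs, or 0, 1.32 and 3.82 CPM. CIA+VFX was at least 2.34-fold higher than Cont, taking 3 UMIs as the floor for Cont, in a class where 30.4% of all genes were past 1.5-fold, and its log2 ratio to CIA was 1.54 (0.46 to 2.77). In the cells of the class with no UMI of the pericyte markers there were 0, 2 and 0 Htr7 UMIs. Both directions were the opposite ones when cells were gated singly by their markers, with log2 ratios of -0.08 to CIA and -0.54 to Cont, or when doublets were kept, with -0.54 and -0.46, so the bound holds only for the cells and classes as kept here.

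Adra2a encodes the alpha2A adrenoceptor, the Gi-coupled receptor that restrains noradrenaline release from nerve endings and contracts vascular muscle. In pericyte and smooth muscle-like cells its level was 9.40 CPM (3.45 to 20.5) in Cont, 76.2 (62.6 to 91.8) in CIA and 60.9 (49.9 to 73.6) in CIA+VFX, from 6, 110 and 107 UMIs in 74, 268 and 364 cells. Cont was below the other libraries, which overlapped. The log2 ratio was 3.02 (1.85 to 4.50) in CIA against Cont and -0.32 (-0.72 to 0.07) in CIA+VFX against CIA. The share of cells with a UMI was 4.05%, 12.3% and 12.9% at medians of 7537, 4105 and 2823.5 UMIs, and 1.56%, 8.37% and 8.88% in thinned cells. Melanocyte-like cells had no UMI in 160, 100 and 167 cells, at medians of 4373.5, 3607 and 4181 UMIs.

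The clusters of that class were not captured in the same shares. The main Rgs5 cluster held 44, 211 and 208 cells, a shallow second Rgs5 cluster 4, 21 and 123, and the Myh11 and Actg2 cluster 26, 36 and 33. In the main Rgs5 cluster Adra2a stood at 18.2 CPM (6.69 to 39.7) in Cont, 100.1 (81.8 to 121) in CIA and 86.0 (70.2 to 104) in CIA+VFX, while the Myh11 and Actg2 cluster had 0 UMIs in each library. Cont remained below the others within the cluster. The 9 vascular endothelial markers summed to 175, 472 and 557 CPM in the class, with Kdr at 0 in Cont. Their sum was lowest in Cont, as was Adra2a, but was highest in CIA+VFX, where Adra2a in the class stood below CIA. Of the Adra2a UMIs, 107 of 110 in CIA and 101 of 107 in CIA+VFX lay in cells with a UMI of those markers, at 117 and 78.7 CPM against 18.2 in Cont. The cells without one stood at 0, 5.64 and 12.7 CPM and were shallower, with medians of 6787, 2843 and 1955 UMIs against 7643, 4614 and 4218. The part of endothelial RNA in the level was not tested.

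Adra2a in vascular endothelial-like cells stood at 3.81 CPM in Cont, 1.32 in CIA and 8.46 in CIA+VFX, from 7, 9 and 82 UMIs. CIA+VFX was the highest, and its log2 ratio to CIA was 2.68 (1.69 to 3.86), where 15.8% of all genes of the class were past 1.5-fold. In CIA+VFX 74 of the 82 UMIs were in the Selp and Sele cluster, whose level was 12.9, 3.49 and 16.8 CPM, and the larger Flt1 cluster had 1, 2 and 2 UMIs. Of the 82 UMIs in CIA+VFX, 81 lay in cells with a UMI of the pericyte markers, which summed to 737, 810 and 1682 CPM in the Selp and Sele cluster. The vascular cells with no such UMI held 1 Adra2a UMI in each library. Thinned to 2000 UMIs per cell, the log2 ratio of CIA+VFX to CIA was 0.40. Against Cont the ratio was 1.15 (0.04 to 2.51), but -0.21 in thinned cells, so CIA+VFX was not the highest there. Without the cells holding pericyte markers the ratio was -1.54, from 1 UMI in each library, and no order can be read at that count. The unnamed cluster led by Rgs5 that also had Flt1 among its leading genes stood at 17.3, 29.4 and 38.6 CPM of Adra2a. Its log2 ratio of CIA to Cont was 0.77 (0.02 to 1.55).

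**Figure D5:**
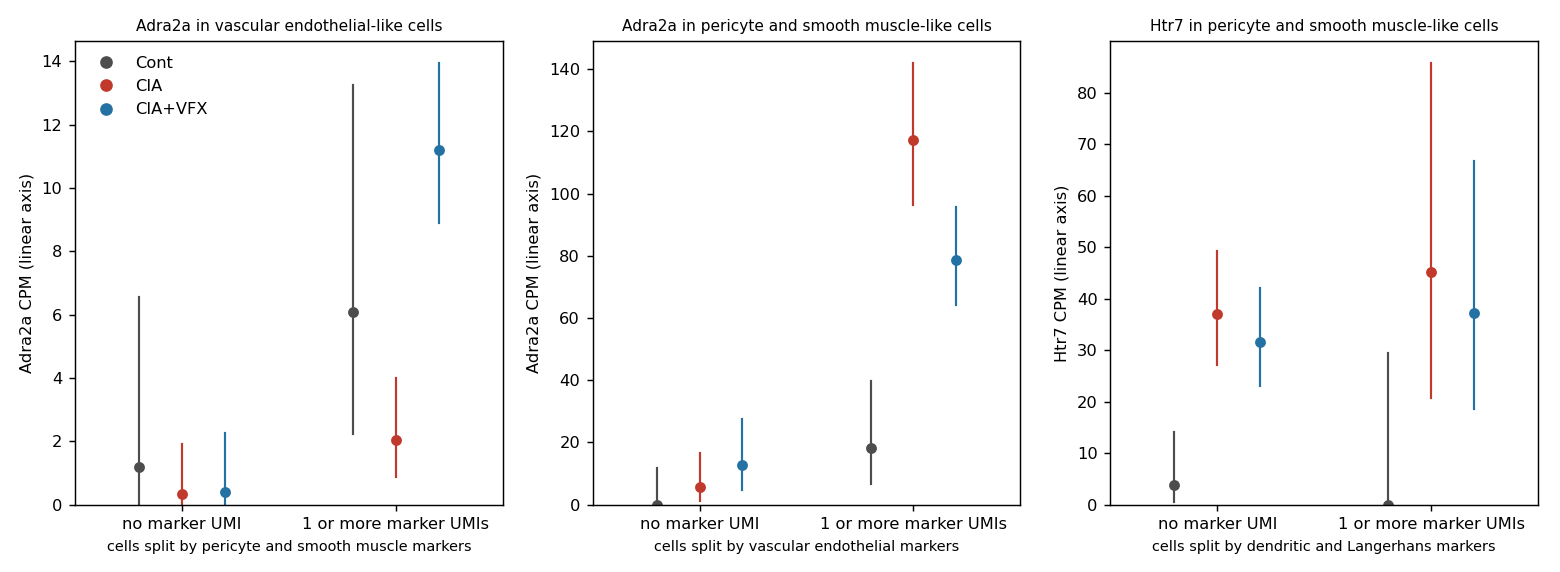
CPM of Adra2a in vascular endothelial-like cells and of Adra2a and Htr7 in pericyte and smooth muscle-like cells (linear axes), each split into cells with no UMI and with 1 or more UMIs of another class's markers. Points are libraries and bars 95% Poisson intervals; Adra2a is near 0 in vascular cells without pericyte markers, and Htr7 in pericyte-like cells is 37.0 CPM in CIA without dendritic markers and 45.1 with them.

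Adra2a and Htr7 were captured together in part of the pericyte and smooth muscle-like cells. Over the 3 libraries 83 of 706 cells of the class had an Adra2a UMI, and 43.4% of those also had an Htr7 UMI, against 6.42% of the cells without Adra2a. The shares were 45.5% against 9.79% in CIA and 44.7% against 4.73% in CIA+VFX, and none of 3 cells had both in Cont. Within the main Rgs5 cluster, which leaves out the Myh11 and Actg2 cells with 0 UMIs of both genes, the shares were closer, at 44.7% against 10.1% over the libraries. Cells with Adra2a were deeper, with a median of 6912 UMIs against 3270, and the part of depth was not tested. The pair couples to opposing G proteins, Gi for alpha2A and Gs for 5-HT7.

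In the follicle and epidermis Adra2a was sparse. Basal keratinocyte-like cells stood at 1.497, 2.43 and 1.73 CPM, inner root sheath-like cells at 0.766, 1.92 and 1.202, and dermal papilla-like cells at 1.36, 2.37 and 0.901. CIA was the highest of the libraries in each of these classes, but every interval of CIA against Cont included 0, and 28.7%, 17.7% and 18.7% of all genes of these classes were past 1.5-fold. Within the basal cluster led by Gnmt and Cxcl14 alone the levels were 1.41, 3.95 and 2.15 CPM. The log2 ratio of CIA to Cont there was 1.49 (0.45 to 2.54), from 19 and 16 UMIs. In the dermal papilla cluster led by Rspo3 and Sostdc1 it was 0.78 (-0.30 to 1.87). In dermal papilla-like cells CIA+VFX was lower than CIA, with a log2 ratio of -1.39 (-2.80 to -0.14) from 8 and 19 UMIs, where 11% of all genes of the class were past 1.5-fold. In basal keratinocyte-like cells the direction of CIA against Cont was the opposite one at a Leiden resolution of 2.5 and in dermal papilla-like cells in thinned cells.

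Adra2b encodes the alpha2B adrenoceptor, also Gi-coupled. Lymphatic endothelial-like cells held 17 of its 52 UMIs, 5 in Cont, 2 in CIA and 10 in CIA+VFX, at 3.17, 0.984 and 3.93 CPM. The intervals of the libraries overlapped. Inner root sheath-like cells held another 14 at 0.547, 0.241 and 0.361 CPM, and pericyte and smooth muscle-like cells 7. Adra1d encodes the alpha1D adrenoceptor, a Gq-coupled receptor of arterial muscle. It had 9 UMIs in all 42677 kept cells, 3, 2 and 4 by library, and no class had more than 2. At this depth no pattern of Adra1d was detectable. Adra1d overlaps the antisense gene Gm14285.

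Adrb1 encodes the beta1 adrenoceptor, the Gs-coupled receptor known from heart muscle. In T, NK and innate lymphoid-like cells its level was 5.76 CPM (4.23 to 7.66) in Cont, 16.5 (13.4 to 20.01) in CIA and 10.6 (8.07 to 13.7) in CIA+VFX, from 47, 101 and 58 UMIs in 1616, 1415 and 1240 cells. CIA was the highest and Cont the lowest, with intervals of Cont clear of both others. The log2 ratio was 1.52 (1.003 to 2.05) in CIA against Cont, where 26.2% of all genes of the class were past 1.5-fold, and -0.63 (-1.12 to -0.15) in CIA+VFX against CIA, where 12.6% were. A UMI was found in 1.86%, 4.88% and 3.15% of the cells, and in 1.19%, 3.37% and 2.31% of thinned cells. Dermal sheath-like cells had none in 266, 853 and 549 cells, which allows shares of cells with a UMI, not of cells expressing the gene, of up to 1.13%, 0.352% and 0.546%, at median depths of 9798.5, 5254 and 5992 UMIs against 4603, 3899 and 3884.5 in the lymphoid class.

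The lymphoid clusters differed in Adrb1. In the cluster led by Trdc and Il17a, genes of gamma delta T cells that make interleukin 17, Adrb1 stood at 17.3, 27.7 and 28.0 CPM in 296, 464 and 272 cells, so that CIA and CIA+VFX stood within 1 CPM of each other. The cluster led by Scart2 and Il23r stood at 10.2, 12.4 and 15.7 CPM. In the cluster led by Kcnma1 and Cd7 the level was 0 in Cont, 83.4 CPM (54.5 to 122) in CIA and 32.3 (16.7 to 56.5) in CIA+VFX, from 0, 26 and 12 UMIs in 26, 82 and 79 cells. With 26 cells in Cont, the limit that a count of 0 allows, 3 UMIs or 31.6 CPM, lay below the interval of CIA. The ratio of CIA to Cont in the Trdc cluster was 0.68 (-0.04 to 1.44) on the log2 scale. The libraries hold these clusters in different shares, and their part in the class ratio was not tested.

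Basal keratinocyte-like cells ranked next for Adrb1, at 1.82 CPM in Cont, 5.39 in CIA and 2.93 in CIA+VFX, from 28, 51 and 34 UMIs. CIA was again the highest. Against Cont its log2 ratio was 1.56 (0.87 to 2.28), beside a median of 0.21 over all genes of the class, 28.7% of which were past 1.5-fold, and -0.88 (-1.55 to -0.22) in CIA+VFX against CIA, where 13.5% were. The cluster led by Gnmt and Cxcl14 stood at 2.38, 5.41 and 2.62 CPM. A small cluster led by Slc39a10 and Porcn, with 4, 111 and 46 cells, stood at 0, 21.8 and 16.1 CPM and held 22 of the 51 UMIs in CIA. Fibroblast-like cells stood at 2.78, 3.12 and 2.398 CPM and macrophage and monocyte-like cells at 1.14, 1.84 and 1.09. The ranges over libraries of basal keratinocyte-like and fibroblast-like cells overlapped. Adrb1 had 0 UMIs in vascular and lymphatic endothelial-like cells.

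The genes whose level ran most like each receptor were found by Pearson's r of log2(CPM + 1) over 57 points, the 19 classes in 3 libraries. Points of 1 library share its depth and points of 1 class share its cells, so these are descriptions. For Htr7 they were Ocstamp at 0.873, Ccl17 at 0.853 and Klra17 at 0.846. For Htr2a they were Gm38477 at 0.901, Ly6c1 at 0.890 and Myrip at 0.883, and for Htr2b they were D330037F02Rik at 0.951, Ccl21d at 0.946 and Prrt4 at 0.936. Adra2a had Ctnna3 at 0.883, Tmem182 at 0.875 and Dmp1 at 0.873. Likeness was weaker for Adrb1, with 4932438H23Rik at 0.749, Plcxd2 at 0.716 and Qprt at 0.715, and for Htr1d, with Csn3 at 0.794, Rnf223 at 0.786 and Grik3 at 0.778.

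Other genes of serotonin and noradrenaline signalling were followed in the class where each receptor was highest. Of the 12 cyclic AMP response targets, 11 were measured in dendritic and Langerhans-like cells, and in CIA against Cont 0 were higher and 5 lower, with a median log2 ratio of -0.06 beside 0.07 over all genes, 30.5% of which were past 1.5-fold. From Cont to CIA the share of the Clec9a cluster among these cells went from 41.1% to 29.0%, and that of the Cd209a cluster from 53.4% to 66.7%. The 10 macrophage and monocyte markers summed to 2508 CPM in Cont and 3753 in CIA and the 9 dendritic markers to 2174 and 1602. Their part in these counts was not tested. Nr4a3, an immediate early nuclear receptor, went from 464 to 176 CPM, the phosphodiesterases Pde4d from 199.5 to 118 and Pde4b from 1253 to 757, and Crem, a repressor of cyclic AMP response genes, from 289 to 183. In CIA+VFX against CIA none of the 11 was past 1.5-fold in either direction, where 12.4% of all genes of the class were. The Gi subunit gene Gnai2 was higher in CIA than in Cont, at 1015 against 623 CPM, as was the phospholipase gene Plcb1, at 13.5 against 4.06. They were among 3 of 13 G protein and arrestin genes and 2 of 15 effectors that were higher, with 1 and 0 lower.

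In pericyte and smooth muscle-like cells 4 of 15 measured effectors were higher and 2 lower in CIA than in Cont, where 29.9% of all genes of the class were past 1.5-fold. Of 16 G protein and arrestin genes 3 were higher and 4 lower. The protein kinase A subunit gene Prkar2b stood at 64.4 against 9.40 CPM and the adenylyl cyclase gene Adcy2 at 89.4 against 28.2, while Rapgef3, a cyclic AMP sensor, stood at 10.4 against 25.1. Of the 12 cyclic AMP targets 2 were higher and 2 lower, among them Rgs2, an inhibitor of Gq, at 208 against 117 CPM, and Ppargc1a at 12.5 against 45.4. In CIA+VFX against CIA 17.1% of all genes of the class were past 1.5-fold. Of the 12 cyclic AMP targets 0 were higher and 1 lower there, Rgs2 at 104 CPM in CIA+VFX. Of 16 G protein and arrestin genes 1 was higher and 3 lower, among them the receptor kinase gene Grk3 at 3.42 against 15.9 CPM. Transporters and breakdown enzymes had 4 measured members, 3 of them lower in CIA than in Cont, among them Maob at 53.3 against 105 CPM.

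Vascular endothelial-like cells had 3 of 15 measured G protein and arrestin genes higher and 0 lower in CIA than in Cont, led by the Gi subunit gene Gnai1 at 20.2 against 9.25 CPM, 1 of 15 effectors higher and 1 lower, and 0 of 11 cyclic AMP targets past 1.5-fold in either direction. Over all genes of that class 26.6% were past it, a larger share than in these lists. In lymphatic endothelial-like cells 2 of 14 effectors were higher and 0 lower, Rapgef3 at 24.1 against 10.2 CPM and Plcb1 at 28.0 against 12.7, where 19.9% of all genes were past 1.5-fold. Of the 12 cyclic AMP targets 1 was higher there, the clock gene Per1 at 54.6 against 35.5 CPM, and 1 lower, the phosphatase gene Dusp1 at 813 against 1519, and 0 of 13 G protein and arrestin genes were past 1.5-fold. In T, NK and innate lymphoid-like cells 1 of 13 G protein and arrestin genes was higher, Grk3 at 25.4 against 10.7 CPM, and 1 lower, Grk5 at 24.5 against 49.1, and of 17 effectors 3 were higher and 1 lower, beside 26.2% of all genes of the class past 1.5-fold. In companion layer-like cells 3 of those 13 genes were higher and 1 lower, among them Gnai2 at 166 against 95.4 CPM, and 1 of 14 effectors and 1 of 12 cyclic AMP targets were higher, beside 22% of all genes of the class past 1.5-fold. Only counts are given for these lists, and none is read as particular to its list.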

How the data were processed

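The deposited files are counts of UMIs per gene and barcode, 1 matrix per library, made by the authors; per the file headers the software was Cell Ranger 8.0.1. The submitters' processing notes name GRCm39 and FastQC 0.11.7. Libraries were made with the GEM-X 3′ v4 chemistry per the labels' protocols. Every barcode had at least 500 UMIs.

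From these counts, barcodes under 500 genes or over 15% mitochondrial UMIs were removed, the second limit taking 1503, 503 and 1484 barcodes in Cont, CIA and CIA+VFX. Likely doublets, those with the most simulated doublets among their 30 neighbours, were removed at 0.4% per 1000 barcodes (734, 1172 and 1263 cells). Cells were clustered with all receptor and pathway-list genes left out of the 2000 variable genes (40 principal components, 20 neighbours, Leiden resolution 1.5, seed 1) using python-igraph 0.11.9, scikit-learn 1.9.0, SciPy 1.17.1, NumPy 2.4.6 and pandas 2.3.3 under Python 3.11.15. Clusters were named from fixed markers of 26 cell types, needing a score of at least 1.4 and 3 markers detected in at least 10% of cells, thresholds set after the clusters were seen. UMIs were summed per class and library. Levels have exact Poisson intervals, shares Clopper-Pearson intervals or, at 0, the limit that 3 counts allow, and ratios conditional binomial intervals, all at 95% and covering counting error only. Thinned shares use 2000 UMIs per cell. The class given as holding no UMI of a receptor was picked by rule. It was the class of at least 300 cells with the lowest share of cells with a UMI. Its 0 therefore follows from the choice and is no separate measure of free RNA. With 1 library per group no test was made.

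Named genes were all 9 receptors, the highest class of each other receptor, the 3 most alike genes of receptors with at least 100 UMIs and, in the highest class of a receptor, up to 4 genes of each fixed list that were at least 1.5-fold apart. The receptors and lists were chosen with earlier results of these data known. Alternatives covered the cell filter, doublets, Leiden resolutions of 0.8 and 2.5, gating of single cells by markers, TMM scaling (edgeR 4.0.16 in R 4.3.3), thinning and subtraction of 5% free RNA, and, chosen after seeing the data, cells free of another class's markers, single clusters, and a call that also needs the interval to leave out 0. The interval code was tested on simulated data. Results of some genes of the lists are not reported here.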

Additional observations from a re-analysis of the deposited data

How the results depend on the processing

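The class with the highest level was the same for 8 of 8 receptors (Adra1d left out) under each of the 8 other settings of processing. Levels in that class moved beyond their counting interval for 5 of 9 receptors in thinned cells, 3 when gated, 2 at resolution 0.8, 1 with doublets kept and 1 with free RNA subtracted. Other log2 ratios moved beyond their interval in 6 cases when thinned, 5 when gated, 5 at resolution 2.5, 4 with doublets kept and 2 at resolution 0.8; among them, Adra2a in basal keratinocyte-like cells (CIA+VFX against Cont) went from 0.21 to -1.48 at resolution 2.5. The counts of pairs past 1.5-fold stayed within 1.5 times of 13 (CIA against Cont), 8 (CIA+VFX against CIA) and 10 (CIA+VFX against Cont). When the counting interval also had to leave out 0, a rule chosen after seeing the data, the first count was 6, because fewer pairs qualify. Changes of sign in ratios under 1.5-fold are not listed. Single log2 ratios past 1.5-fold that changed sign were these, and except where the setting leaves out cells the cause was not tested. Htr7 in vascular endothelial-like cells was -0.078 (cells gated by their own markers) and -0.54 (doublets kept) for CIA+VFX against CIA, and -0.54 and -0.46 for CIA+VFX against Cont. Htr7 in macrophage and monocyte-like cells was -0.0060 with doublets kept (CIA+VFX against CIA) and -0.089 in the Lyz1 cluster alone (CIA against Cont). Adra2a was -1.02 in basal keratinocyte-like cells at resolution 2.5 and -0.61 in thinned dermal papilla-like cells (both CIA against Cont). In vascular endothelial-like cells Adra2a was -0.21 when thinned and -1.54 without cells holding pericyte markers (CIA+VFX against Cont). The second value comes from 1 UMI in each library and gives no order. Adrb1 was -0.026 in gated basal keratinocyte-like cells (CIA+VFX against Cont) and 0.015 in the Trdc cluster alone (CIA+VFX against CIA), and Htr1d was 0.42 in the Pthlh cluster alone (CIA+VFX against CIA). No paired analysis was possible because each group has 1 library. Differences between single pools, sampling or capture of cells included, cannot be told apart from those between treatments. In pericyte and smooth muscle-like cells the depth of Cont is set by 74 cells.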

Other observations

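Of the 14 other receptors, the alpha1 and alpha2 genes outside the 9 were highest in pericyte and smooth muscle-like cells. Adra1a, the alpha1A adrenoceptor gene, stood there at 725 CPM in Cont, 313 in CIA and 380 in CIA+VFX and had 74.7% of its UMIs in the class. Its log2 ratio of CIA to Cont was -1.21. Adra1a is among the leading genes of the Myh11 and Actg2 cluster, which held 0 UMIs of Adra2a and Htr7 and made up 35.1% of the class in Cont, 13.4% in CIA and 9.07% in CIA+VFX, and the part of this makeup was not tested. Adra1b stood at 13.03 CPM and Adra2c at 22.1 CPM over the libraries. Adrb3 was highest in bulge and outer root sheath-like cells at 12.1 CPM, as was Htr6 at 2.23 CPM, Htr5b in matrix and hair shaft-like cells at 1.10 CPM, and Htr1a, Htr3a and Htr5a had 0 UMIs in kept cells. In fibroblast-like cells Adra1a stood at 15.7, 3.30 and 10.8 CPM, with CIA the lowest, a class picked out after its values were seen.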
